A study of Homo sapiens with 40 samples.

Results

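Genes that inactivate, activate or sense steroid hormones and vitamin D were followed in A549, a long-established line of human lung carcinoma cells, through their responses to the synthetic glucocorticoid dexamethasone (dex) and to the depletion of 4 proteins of transcriptional regulation. The 9 genes were chosen by name: HSD11B2, CYP24A1, VDR, AKR1C1, AKR1C2, AKR1C3, AKR1B1, AKR1B10 and STS. All probes that the platform annotation assigned to them were taken, which gave 9 probes for 7 genes, out of 18353 genes with a probe. AKR1B1 and STS had no listed probe and are not analysed here. 6 of the 7 genes passed a filter on dim probes, which asked for a group mean above 5 on the log2 intensity scale in at least 1 group and left 10608 genes for testing.

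The 40 single-colour Illumina bead arrays fell into 10 groups. Cells received a non-specific siRNA (siNS, 6 arrays in ethanol and 6 in dex) or an siRNA against CCAR1 (siCCAR1), against CoCoA, whose gene is CALCOCO1 (siCoCoA), or against CCAR2 (siCCAR2), with 4 arrays in each treatment. The siRNA against ZNF282 (siZNF282, called ZFP282 in the titles) had 2 arrays in each treatment, so its estimates were the least precise. All cells were transfected with Oligofectamine, kept in hormone-free medium with charcoal-stripped serum and then given 100 nM dex or the vehicle ethanol for 6 h. The titles of the ethanol arrays carry 0 h, whereas the treatment protocol gives ethanol for the same 6 h. The labels do not say that replicates were separate cultures, so p-values measure only the spread between these arrays, which may be technical. In bulk RNA, fewer cells that express a gene and less RNA per cell cannot be told apart.

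Glucocorticoids act through the glucocorticoid receptor, a ligand-activated transcription factor, and their local action depends on enzymes that interconvert active and inactive steroids. HSD11B2 oxidizes cortisol to inactive cortisone, chiefly in kidney and other mineralocorticoid target tissues. CYP24A1, a mitochondrial cytochrome P450, hydroxylates calcitriol, the active form of vitamin D, and so starts its breakdown, while VDR is the nuclear receptor for calcitriol. The aldo-keto reductases AKR1C1, AKR1C2 and AKR1C3 reduce keto groups of progestins, androgens and prostaglandins. AKR1B10 reduces retinal and reactive aldehydes. AKR1B1 is aldose reductase and STS is steroid sulfatase. A549 cells are known for an inactive KEAP1 protein and a constantly active NRF2, a transcription factor that drives AKR1C genes and AKR1B10.

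The AKR1C genes lie side by side on chromosome 10 and are similar copies, so the probes of one may take up RNA of another. In GRCh38.p14, AKR1C2 spans chr10:4987775-5018000, between AKR1C1 at chr10:4963415-4983283 and AKR1C3 at chr10:5048781-5107686. The 250 bases before the start site listed in RefSeq are shown for the 3 copies, because they show how alike the locus is even outside the coding exons. The AKR1C2 window, chr10:5003858-5004107 on the minus strand, lies within the annotated span of that gene. The other windows are chr10:4963165-4963414 for AKR1C1 and chr10:5048531-5048780 for AKR1C3, both on the plus strand. Capitals mark bases that differ from AKR1C1, or are inserted against it, in a pairwise alignment. Bases at the ends that have no AKR1C1 partner in the alignment are left in lower case.
AKR1C1: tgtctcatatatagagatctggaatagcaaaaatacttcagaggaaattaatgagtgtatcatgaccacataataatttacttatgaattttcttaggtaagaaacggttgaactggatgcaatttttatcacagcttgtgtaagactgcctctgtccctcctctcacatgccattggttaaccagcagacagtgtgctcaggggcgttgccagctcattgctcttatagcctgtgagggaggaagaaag
AKR1C2: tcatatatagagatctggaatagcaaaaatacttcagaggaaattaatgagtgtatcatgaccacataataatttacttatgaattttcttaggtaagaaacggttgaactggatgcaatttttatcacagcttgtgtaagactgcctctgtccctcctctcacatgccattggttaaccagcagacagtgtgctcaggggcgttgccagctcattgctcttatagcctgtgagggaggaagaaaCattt
AKR1C3: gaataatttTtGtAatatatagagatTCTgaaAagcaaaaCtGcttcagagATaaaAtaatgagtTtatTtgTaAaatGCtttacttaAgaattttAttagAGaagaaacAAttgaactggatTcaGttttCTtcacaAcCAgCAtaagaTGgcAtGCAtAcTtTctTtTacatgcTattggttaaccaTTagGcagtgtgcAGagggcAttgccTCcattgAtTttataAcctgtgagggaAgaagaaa
AKR1C2 was identical to AKR1C1 at 245 of 246 aligned bases (99.6%), and AKR1C3 at 185 of 241 (76.8%). The AKR1C3 share leaves out 1 extra and 8 missing bases within the alignment. The letters AGTTCA, a core motif of VDR and related nuclear receptors, were searched on both strands and matched once in each of the 3 windows, as they did in 8.8% of the 35116 promoter windows of the same length. AGGTCA (12.1% of windows), the palindromic glucocorticoid response element in its full (0.00285%) and its core form (0.327%) and the NRF2 core TGACNNNGC (10.9%) had no match in these windows. A match is only a run of letters, not a measured binding site.

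The levels of the measured genes covered the whole range of the arrays, whose values ran from 4.13 to 14.32 (log2 intensity) with array medians of 4.67 to 4.69. The main AKR1C2 probe was near the ceiling: its median rank among 34469 probes was 10.5, and it was the brightest probe of all on at least 1 array. AKR1B10 (median rank 34.5) and AKR1C3 (median rank 72) were also among the brightest. How far such bright signals were compressed was not tested. CYP24A1 was well measured, with group means of 9.43 to 11.27. HSD11B2 and VDR lay close to background. HSD11B2 was above 5 on 14 of 40 arrays, all from dex groups, and VDR on 4 of 40. HSD11B2 therefore passed the filter only through dex groups and VDR only through the siZNF282 groups, so counts over the 6 tested genes are a description and support nothing by themselves. The same holds for the differences of these genes that involve those groups. The AKR1C1 probe stayed between 4.17 and 4.78 on all arrays, below the filter line in every group.

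HSD11B2 rose with dex in siNS, siCoCoA and siCCAR2 and was lower than siNS in dex in every depletion. Its gene lies at chr16:67429801-67437553 (GRCh38.p14). In siNS cells the ethanol arrays had a lowest value of 4.32, a median of 4.60 and a highest of 4.77 (log2 intensity), and the dex arrays 5.50, 5.79 and 6.22. The groups did not overlap, and every dex array lay above the line of 5 while no ethanol array did. The difference was 1.25 ± 0.14 (log2 difference ± SE, 6 against 6 arrays, limma adjusted p = 5.27e-09). Because the ethanol level was not above background, the increase is a bound, at least 1.78-fold against the line of 5.

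The estimates were smaller in the depleted cells, and the test of that difference follows the values. In siCCAR1 cells the ethanol arrays read 4.46, 4.29, 4.42 and 4.43, and the dex arrays 4.76, 4.78, 4.53 and 5.31. The groups did not overlap, but the response of 0.44 ± 0.17 did not pass the test (limma adjusted p = 0.117). In siCoCoA cells the ethanol arrays read 4.51, 4.47, 4.30 and 4.20, and the dex arrays 5.64, 5.26, 5.06 and 5.11. That group kept an increase of 0.90 ± 0.17 (limma adjusted p = 0.000213), at least 1.20-fold against the line. In siCCAR2 cells the ethanol arrays read 4.35, 4.70, 4.46 and 4.54, and the dex arrays 5.00, 5.34, 4.89 and 5.14. The increase was 0.58 ± 0.17 (limma adjusted p = 0.0201), at least 1.06-fold against the line. That call was lost without siCCAR2 dex replicate 2 (0.50, adjusted p = 0.0844), dex replicate 4 (0.56, adjusted p = 0.0525) or ethanol replicate 1 (0.52, adjusted p = 0.0679). In siZNF282 cells the ethanol arrays read 4.36 and 4.53, and the dex arrays 5.15 and 4.37. Those ranges overlapped, and the response of 0.31 ± 0.24 did not pass the test (limma adjusted p = 0.550). Without siZNF282 dex replicate 2 the response was -0.08.

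Compared directly in dex, HSD11B2 fell below siNS in each depletion. In siCCAR1 the difference was -0.98 ± 0.15 (limma adjusted p = 1.27e-05). For siCoCoA it was -0.56 ± 0.15 with an adjusted p of 0.00752, and for siCCAR2 -0.74 ± 0.15 with an adjusted p of 0.000536. The siZNF282 arrays gave -1.07 ± 0.19 with an adjusted p of 4.88e-05. Since only 1 of 4 siCCAR1, 2 of 4 siCCAR2 and 1 of 2 siZNF282 dex arrays were above the line of 5, these sizes are uncertain, and with the dimmer arrays raised to the line siNS was at least 1.68-fold, 1.63-fold and 1.68-fold higher. Ranges did not overlap for siCCAR1, siCCAR2 and siZNF282, whereas the highest siCoCoA array (5.64) lay above the lowest siNS array (5.50). All 4 calls remained when any single array of the groups compared was left out. The siZNF282 difference was -0.68 without its dex replicate 3 and -1.46 without replicate 2. In ethanol, where all groups were below the line, no difference was called, with values from -0.21 in siCoCoA to -0.06 in siCCAR2. The change of the dex response itself, tested as an interaction, was -0.81 (95% interval -1.25 to -0.37) in siCCAR1, -0.36 (-0.80 to 0.08) in siCoCoA, -0.67 (-1.11 to -0.23) in siCCAR2 and -0.94 (-1.50 to -0.38) in siZNF282. None of these passed the limma test after adjustment over all genes (adjusted p = 0.317, 0.998, 0.437 and 0.158), although the unadjusted p was 0.000687 in siCCAR1, 0.00379 in siCCAR2 and 0.00163 in siZNF282. The values in depleted cells lie close to background, where log2 differences are compressed. HSD11B2 was tested only because its means in siNS, siCoCoA and siCCAR2 dex were above the line. Its dex responses and its differences from siNS in dex are therefore a description.

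**Figure D1:**
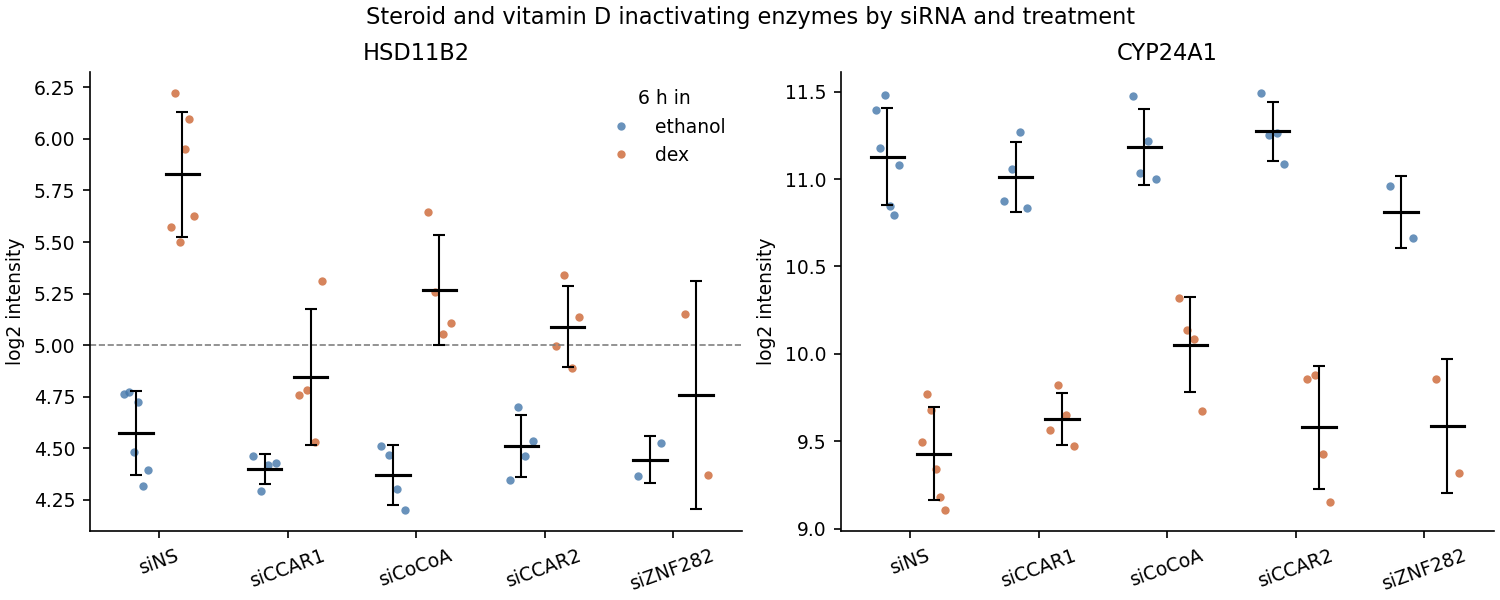
HSD11B2 (left) and CYP24A1 (right) on every array, as log2 intensity, for the 5 siRNAs in ethanol (blue) and dex (orange). Points are arrays, black bars the group mean and SD, and the dashed line the filter line of 5. All 6 siNS dex arrays of HSD11B2 lie above the line, and every CYP24A1 dex group lies below its ethanol group.

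CYP24A1 fell with dex under every siRNA, without overlap between the treatments. Its gene lies at chr20:54143538-54173986 (GRCh38.p14). In siNS cells the ethanol arrays had a lowest value of 10.80, a median of 11.13 and a highest of 11.48, and the dex arrays 9.11, 9.42 and 9.77. The response was -1.70 ± 0.14 (6 against 6 arrays, limma adjusted p = 7.8e-12), which leaves 30.8% of the ethanol intensity. In siCCAR2 cells the ethanol arrays read 11.49, 11.25, 11.26 and 11.09 and the dex arrays 9.86, 9.88, 9.42 and 9.15, a response of -1.69 ± 0.17 (adjusted p = 2.17e-09). The siCCAR1 cells read 10.87, 11.06, 11.27 and 10.84 in ethanol and 9.57, 9.82, 9.65 and 9.47 in dex, a response of -1.38 ± 0.17 (adjusted p = 2.86e-07). No dex array of these groups reached the level of any of their ethanol arrays.

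The smallest decrease was in siCoCoA cells. Their ethanol arrays read 11.47, 11.03, 11.22 and 11.00 and their dex arrays 10.32, 10.14, 10.08 and 9.67, a response of -1.13 ± 0.17 (limma adjusted p = 1.11e-05) that leaves 45.7% of the ethanol intensity. The siZNF282 cells read 10.96 and 10.66 in ethanol and 9.86 and 9.32 in dex, a response of -1.22 ± 0.25 (adjusted p = 0.0011). This call was lost without siZNF282 dex replicate 3 (-0.95, adjusted p = 0.0663). In the order of the 10 group means, all ethanol groups stood above all dex groups. The step from siZNF282 ethanol (10.81) down to siCoCoA dex (10.05) was the only one between neighbours whose arrays did not overlap.

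In dex, CYP24A1 was higher in siCoCoA than in siNS by 0.62 ± 0.16 (limma adjusted p = 0.00435), with ranges that overlapped because the lowest siCoCoA array (9.67) lay below the highest siNS array (9.77). The call remained without any single array of the 2 groups. The other depletions gave 0.20 (siCCAR1), 0.15 (siCCAR2) and 0.16 (siZNF282) in dex, none of which passed the test. In ethanol no difference was called, with values from -0.32 in siZNF282 to 0.14 in siCCAR2. As a change of the dex response, siCoCoA gave 0.57 (95% interval 0.11 to 1.03), which did not pass after adjustment over all genes (adjusted p = 0.974, unadjusted p = 0.0159). The intervals of the other 3 were -0.14 to 0.78 in siCCAR1, -0.45 to 0.46 in siCCAR2 and -0.10 to 1.06 in siZNF282, and all include 0.

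VDR, the receptor whose ligand CYP24A1 degrades, was not called in any dex response. Its gene lies at chr12:47841537-47904994 (GRCh38.p14). In siNS cells it read between 4.48 and 4.78 in ethanol, with a median of 4.62, and between 4.36 and 5.01 in dex, with a median of 4.77. The dex responses ran from -0.15 in siCoCoA to 0.20 in siZNF282. The siZNF282 arrays read 4.79 and 5.24 in ethanol and 4.95 and 5.47 in dex, the 2 highest group means. In dex this was 0.48 ± 0.17 above siNS (limma adjusted p = 0.0320), with overlapping ranges and at least 1.16-fold with siNS arrays raised to the line, and in ethanol 0.39 ± 0.17 above siNS without passing the test (adjusted p = 0.0776). The call in dex was lost without siNS dex replicate 1 (0.40, adjusted p = 0.0684), replicate 2 (0.46, adjusted p = 0.0512) or replicate 5 (0.43, adjusted p = 0.0612). Without siZNF282 dex replicate 3 the difference was 0.22, and without replicate 2 it was 0.74, so the size rests on single arrays. VDR was tested only because of the high siZNF282 groups, so these differences from siNS are a description.

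**Figure D2:**
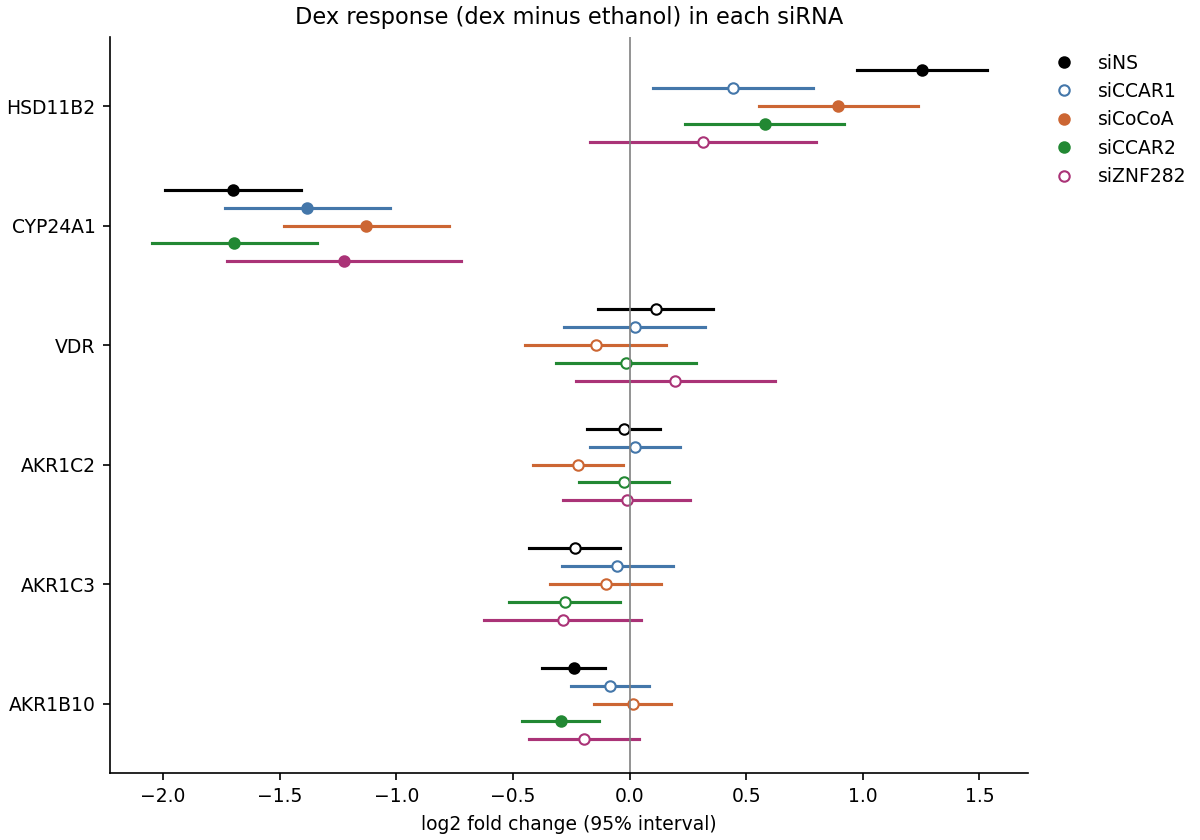
Dex response (dex minus ethanol, log2) of the 6 tested genes in each of the 5 siRNAs, with 95% intervals from limma. Filled points passed the test at an adjusted p under 0.05. CYP24A1 lies left of 0 under every siRNA, from -1.70 to -1.13, and HSD11B2 lies right of 0, most in siNS at 1.25.

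AKR1B10 fell with dex in siNS and siCCAR2. The gene, at chr7:134527567-134541412 (GRCh38.p14), read a lowest value of 13.99, a median of 14.04 and a highest of 14.18 in siNS ethanol, and 13.76, 13.80 and 13.89 in siNS dex. The groups did not overlap, and the decrease was -0.24 ± 0.07 (limma adjusted p = 0.00987), or 84.7% of the ethanol intensity. In siCCAR2 cells it read 14.06, 14.05, 13.87 and 14.10 in ethanol and 13.65, 13.81, 13.56 and 13.87 in dex, a decrease of -0.30 ± 0.08 (adjusted p = 0.0138). That call was lost without siCCAR2 dex replicate 3 (-0.24, adjusted p = 0.0833). The other dex responses were -0.08 in siCCAR1, 0.01 in siCoCoA and -0.19 in siZNF282, and none passed the test.

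In dex, AKR1B10 was slightly higher in siCoCoA (14.02, 14.03, 14.06 and 13.99) than in siNS, by 0.21 ± 0.07 (limma adjusted p = 0.0442), without overlap. This call was near the threshold. It was lost without any of the 4 siCoCoA dex arrays (0.20 to 0.22, adjusted p = 0.0666 to 0.104), and without siNS dex replicate 1, 2, 4 or 6 (0.20 to 0.21, adjusted p = 0.0616 to 0.0754). The siCCAR1 arrays (13.88, 14.18, 13.93 and 14.05) were 0.19 ± 0.07 above siNS in dex without passing the test (adjusted p = 0.0671), but did pass without siCCAR1 dex replicate 1 (0.24, adjusted p = 0.0443). The interaction was 0.25 (95% interval 0.04 to 0.47) in siCoCoA and did not pass (adjusted p = 0.998). AKR1B15, the closest copy of AKR1B10, has a probe annotated to it, and whether that probe also reads AKR1B10 was not tested. It fell by 0.59 with dex in siNS (limma adjusted p = 2.1e-05) and was higher in dex in siCCAR1 (0.46, adjusted p = 0.0028) and siCoCoA (0.36, adjusted p = 0.017).

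AKR1C3, also known as prostaglandin F synthase and a maker of testosterone, had no called change in the main fit. In siNS cells it read 13.75 to 13.97 in ethanol, with a median of 13.90, and 13.35 to 14.01 in dex, with a median of 13.66, and the ranges overlapped. The response was -0.24 ± 0.10 (limma adjusted p = 0.0919). With the replicate number as a block, which treats same-numbered arrays as pairs, the limma adjusted p was 0.0349. With a trended robust variance in limma it was 0.0480. Without siNS dex replicate 4, the highest dex array, the response was -0.31 (adjusted p = 0.0194). In siCCAR2 cells it read 13.62, 13.87, 13.49 and 13.80 in ethanol and 13.25, 13.62, 13.26 and 13.54 in dex, a response of -0.28 ± 0.12 (adjusted p = 0.151). The depletion differences ran from -0.19 to 0.06 in ethanol and from -0.23 in siCCAR2 to 0.25 in siCCAR1 in dex. The last passed only without siNS dex replicate 4 (0.32, adjusted p = 0.0279).

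AKR1C2, which reduces dihydrotestosterone to a weak androgen, was lower in siCoCoA than in siNS in dex. The main probe, ILMN_2412336, read 14.05 to 14.25 in siNS dex with a median of 14.18, and 13.66, 13.81, 13.75 and 13.87 in siCoCoA dex. The ranges did not overlap, and the difference was -0.40 ± 0.09 (limma adjusted p = 0.0008). It stayed called without any single array of both groups. In ethanol the same depletion gave 13.95, 14.11, 13.68 and 14.23 against 14.09 to 14.32 in siNS, a difference of -0.21 ± 0.09 that did not pass (adjusted p = 0.106). Without siCoCoA ethanol replicate 4 it passed (-0.29, adjusted p = 0.0346). With the mean of the AKR1C2 probes in place of the brightest, AKR1C2 was called lower in ethanol in siCoCoA (-0.24, limma adjusted p of 0.0476) and likewise in siCCAR2 (-0.25, with one of 0.0441). No dex response of this probe was called: it was -0.03 in siNS and -0.22 in siCoCoA (adjusted p = 0.161), and the latter passed without siCoCoA ethanol replicate 3 (-0.32, adjusted p = 0.0228).

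**Figure D3:**
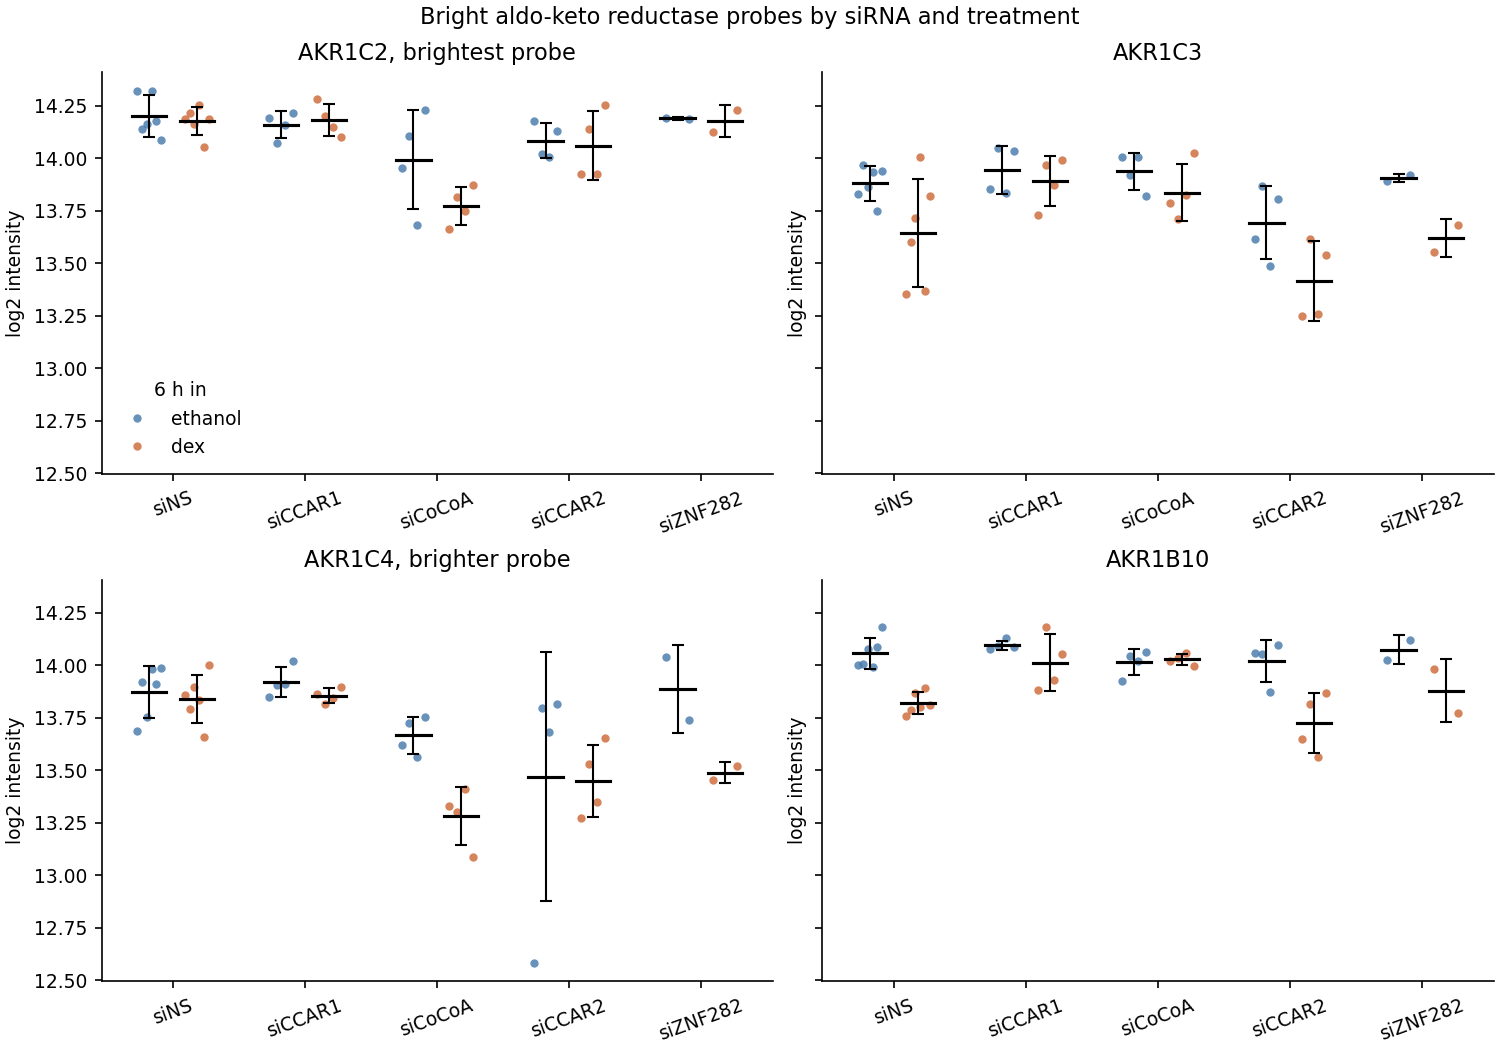
Bright aldo-keto reductase probes on every array, as log2 intensity, for the 5 siRNAs in ethanol (blue) and dex (orange), with group means and SDs. The siCoCoA dex arrays of AKR1C2 (13.66 to 13.87) and of the brighter AKR1C4 probe (13.09 to 13.41) lie below all siNS dex arrays. So do the siCCAR2 (13.27 to 13.65) and siZNF282 (13.45 to 13.52) dex arrays of that AKR1C4 probe.

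A bright AKR1C4 probe (ILMN_1687757), for a paralogue known as a liver enzyme, read 13.33, 13.30, 13.41 and 13.09 in siCoCoA dex against a lowest siNS dex array of 13.66, so the ranges did not overlap, with a difference of -0.56 ± 0.14 (limma with every probe as a feature, adjusted p = 0.00412). Its brightness was near that of the AKR1C2 and AKR1C3 probes, while a further AKR1C4 probe (ILMN_1668880) had group means of only 4.52 to 5.40. The bright AKR1C4 probe was also below all siNS dex arrays in siCCAR2 dex (13.27 to 13.65) and siZNF282 dex (13.45 to 13.52). Ranges did not overlap there for 12.7% and 37.1% of all tested genes. Its low level in dex was thus not particular to siCoCoA. Whether the bright AKR1C4 probe reads AKR1C4 or a paralogue cannot be told apart, since the probe sequences are not in the tables used here. AKR1C3 gave 0.19 in siCoCoA against siNS in dex, which did not pass the test (limma adjusted p = 0.220). The difference between the probes was not tested.

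AKR1C2 had 2 dimmer probes, whose differences from the main probe were not tested. ILMN_3237488, annotated to a second transcript, read 5.04 to 5.62 in siNS ethanol, 4.88, 4.48, 4.84 and 4.77 in siCCAR2 ethanol, and 4.49, 4.98, 4.91 and 5.28 in siCoCoA ethanol. It was lower than siNS by -0.66 ± 0.17 in siCCAR2 ethanol (limma with every probe as a feature, adjusted p = 0.00428), without overlap, and by -0.49 ± 0.17 in siCoCoA ethanol (adjusted p = 0.0416), with overlap. In both groups the mean was below the line of 5, with 0 of 4 and 1 of 4 arrays above it, so siNS was at least 1.33-fold and 1.26-fold higher with the dimmer arrays raised to the line. The main probe gave -0.12 and -0.21 in these comparisons, neither called. The dimmest probe, ILMN_1730191, is annotated to the same transcript as the main probe. It read 4.17 to 4.98 on all arrays except the siZNF282 ethanol arrays at 5.34 and 5.40, through which alone it passed the filter.

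For that probe the siZNF282 ethanol group was 1.07 ± 0.13 above siNS ethanol (limma with every probe as a feature, adjusted p = 3.73e-08), and dex brought it back to 4.29 and 4.17, a response of -1.14 ± 0.16 (adjusted p = 3.59e-06). The change of the dex response against siNS was -1.33 ± 0.18 (adjusted p = 0.000151). All arrays of the other 3 groups lay below the line, so the siZNF282 ethanol level was at least 1.29-fold above siNS ethanol and above siZNF282 dex. The probe was tested only because of that one high group, so these differences are a description. Over the same arrays the main AKR1C2 probe differed from siNS by -0.012 in ethanol and 0.00082 in dex. AKR1C1, whose single probe is equally dim, read 4.52 and 4.24 in siZNF282 ethanol against 4.19 to 4.64 in siNS ethanol. In a fit of 18353 genes without a filter, AKR1C1 had no called change in any of 17 comparisons (0 at an unadjusted p under 0.05 as well), with values from -0.18 to 0.10.

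**Figure D4:**
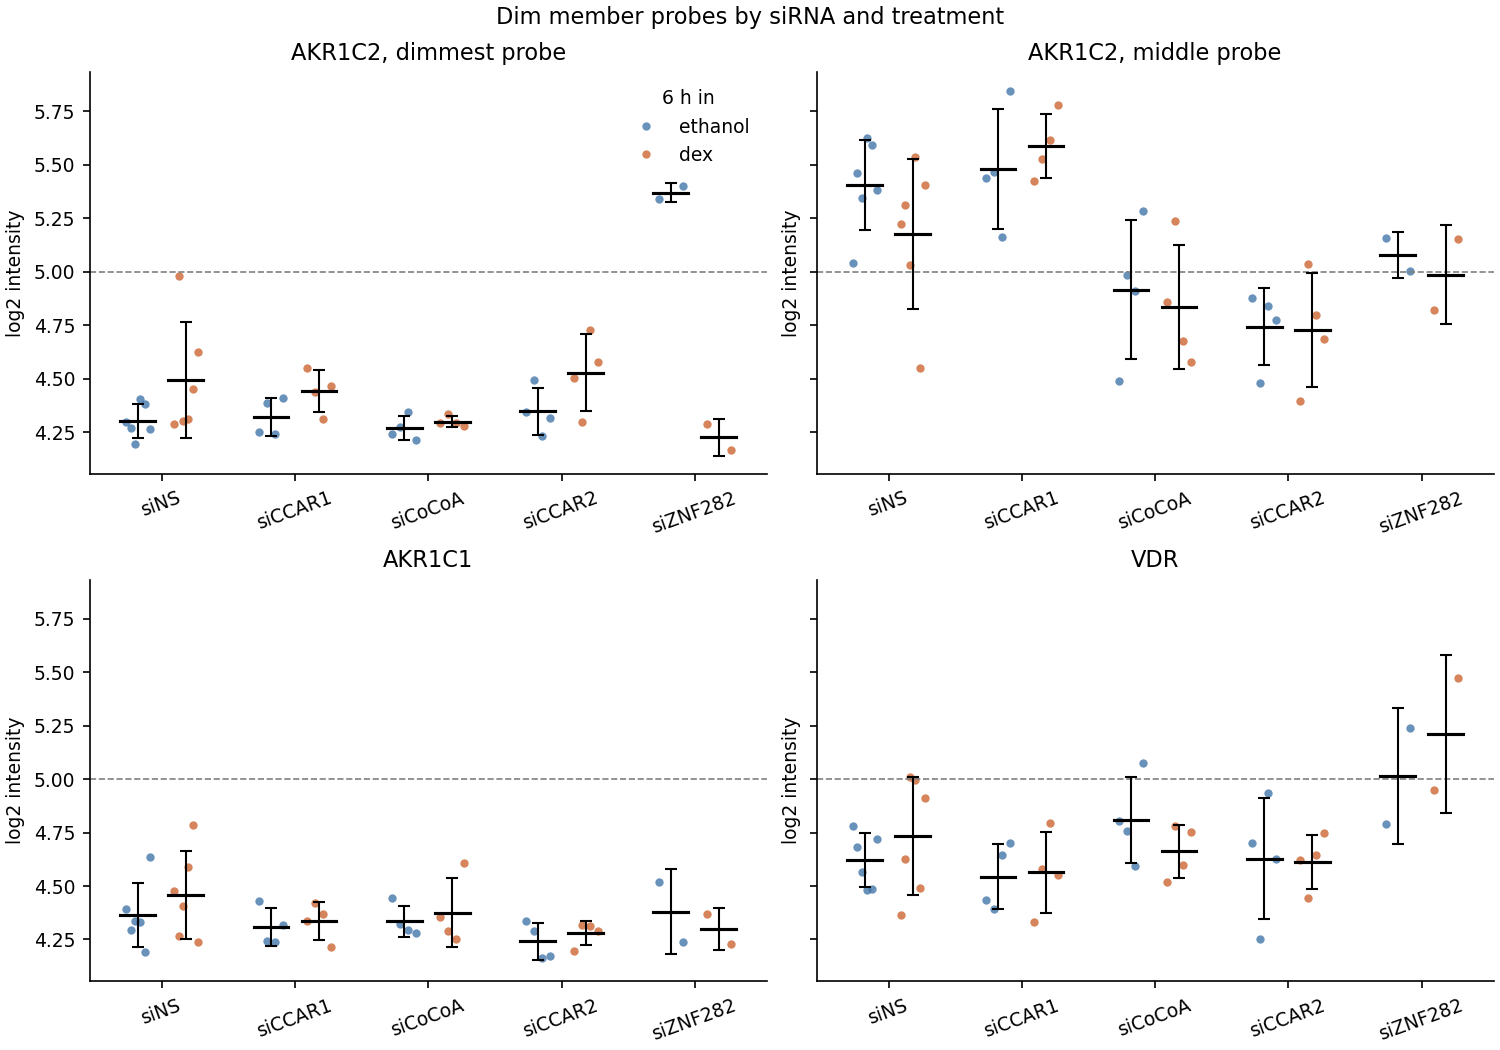
Dim probes on every array, as log2 intensity, for the 5 siRNAs in ethanol (blue) and dex (orange), with group means and SDs and the filter line of 5 (dashed). The dimmest AKR1C2 probe stands at 5.34 and 5.40 on the siZNF282 ethanol arrays alone, while AKR1C1 stays below the line on all arrays.

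Counted over the 6 tested genes, the dex response gave 10 calls in 30 tests, 3 higher and 7 lower. In siNS, HSD11B2 rose, as did 7.7% of all tested genes, and CYP24A1 and AKR1B10 fell, as did 8.61%. In siCCAR1, CYP24A1 fell alone, where 4.33% of all genes rose and 3.36% fell. In siCoCoA, HSD11B2 rose and CYP24A1 fell, where 5.36% rose and 4.56% fell. In siCCAR2, HSD11B2 rose and CYP24A1 and AKR1B10 fell, where 6.47% rose and 3.25% fell. In siZNF282, CYP24A1 fell alone, where 3.9% rose and 2.29% fell. The median response of the 6 genes was -0.13 in siNS, near the median of all genes (-0.03), since the members moved in both directions or little. Groups did not overlap for HSD11B2, CYP24A1 and AKR1B10 in siNS, as for 9.07% of all genes, and such shares were 15% in siCCAR1, 14.3% in siCoCoA, 11.3% in siCCAR2 and 42.4% in siZNF282.

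With 1 probe per gene, no depletion difference passed the limma test in ethanol in 24 tests, with 2 at an unadjusted p under 0.05. The dimmer AKR1C2 probes did have calls there, as given above. Of all genes, siCCAR1 ethanol had 7.31% higher and 6.5% lower, and siCoCoA ethanol 8.44% higher and 7.02% lower. For siCCAR2 these shares were 7.24% higher and 8.96% lower, and siZNF282 reached 14.5% higher and 17.1% lower. In dex 8 of 24 tests passed, 3 higher and 5 lower. In siCCAR1 HSD11B2 was lower, where 8.9% of all genes were lower and 10.1% higher, and in siCCAR2 HSD11B2 was lower again, where 8.37% were lower and 10.5% higher. In siZNF282 HSD11B2 was lower and VDR higher, where 15% of all genes were lower and 15.5% higher. In siCoCoA HSD11B2 and AKR1C2 were lower and CYP24A1 and AKR1B10 higher, where 9.07% were lower and 11% higher. Ranges did not overlap between depleted and siNS arrays for 14.1%, 12.7%, 37.1% and 14% of all genes in these comparisons, in the same order. The change of the dex response gave 0 calls in 24 limma tests, with 5 at an unadjusted p under 0.05, where 0.104% (siCCAR1), 0.00943% (siCoCoA), 0.0848% (siCCAR2) and 0.245% (siZNF282) of all genes were called. A difference between called and not called responses is thus not itself shown for any member.

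**Figure D5:**
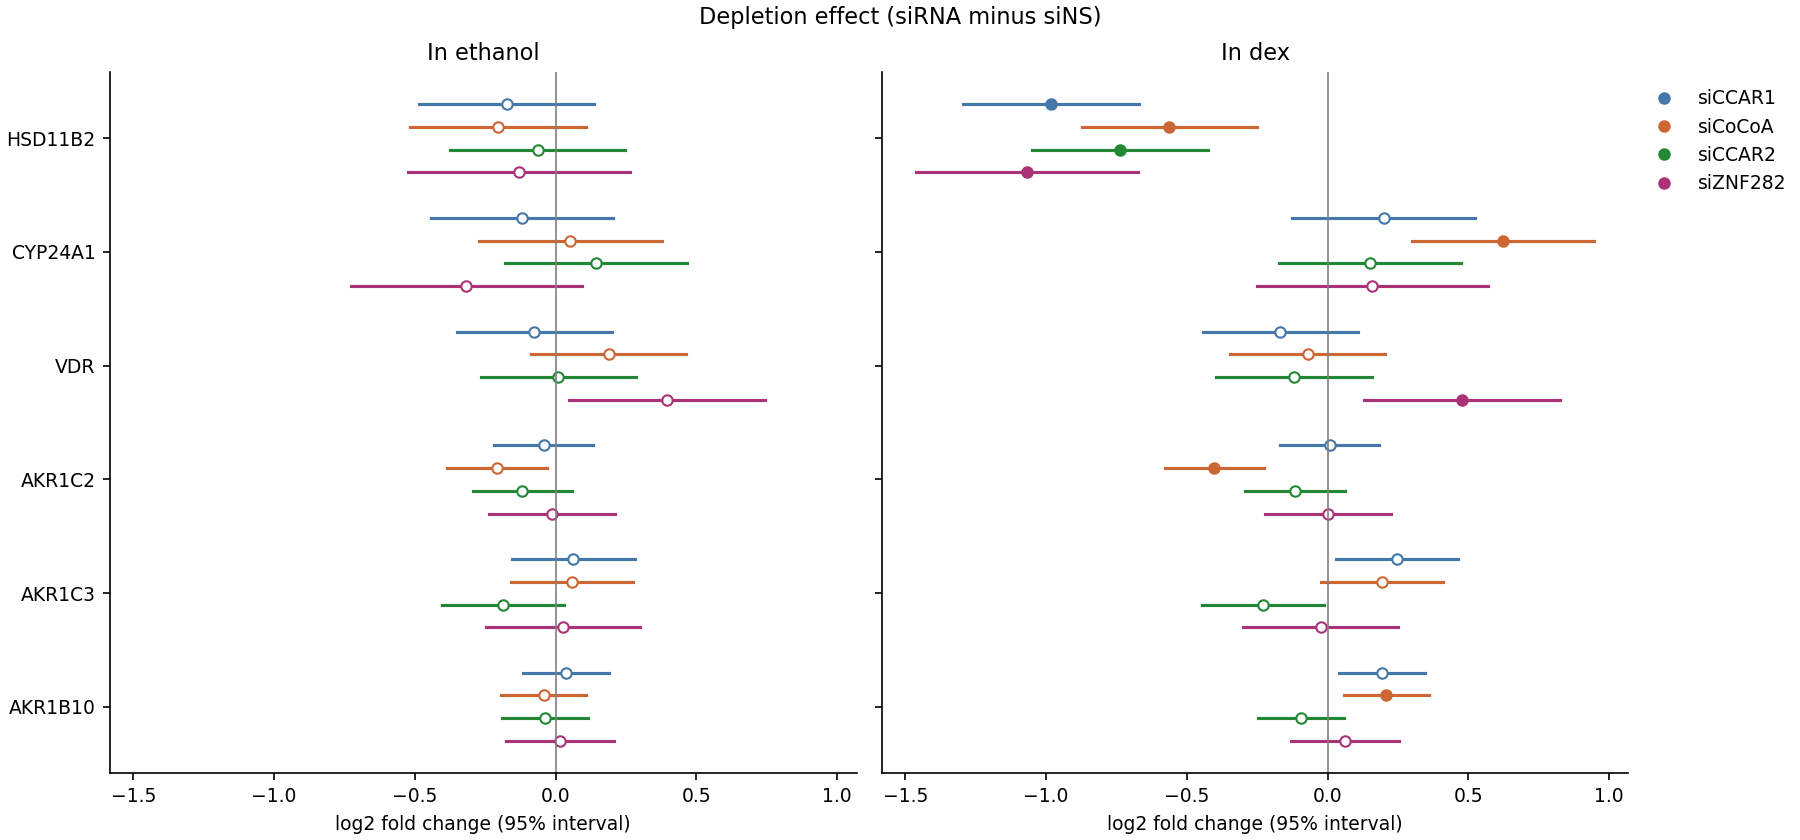
Depletion effect (siRNA minus siNS, log2) of the 6 tested genes in ethanol (left) and dex (right), with 95% intervals from limma. Filled points passed the test at an adjusted p under 0.05. All points are open in ethanol, and in dex HSD11B2 is lower in the 4 depletions, from -1.07 to -0.56.

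The siRNA targets were lower in their own groups. CCAR1 stood at 60.5% of the siNS intensity in ethanol and 49.8% in dex, CCAR2 was lower by -2.31 and -2.30, and ZNF282 by -1.42 and -0.85. CALCOCO1 in siCoCoA was lower by -0.44 and -0.88, but in the same cells CCAR2 was also lower, by -0.96 and -1.10, so the siCoCoA results above concern cells low in both. CALCOCO1 was called higher than siNS in siCCAR1 ethanol (0.50, limma adjusted p = 0.0109). It was also higher in siZNF282 ethanol (0.53, adjusted p = 0.0191) and siZNF282 dex (0.66, adjusted p = 0.00374). All 8 differences of a target in its own group were called (limma adjusted p at most 0.0259). The lowest group means of CCAR1 (4.62) and CALCOCO1 (4.50) were below the line of 5, so the sizes of their decreases are uncertain. Array ranges overlapped those of siNS for CCAR1 in siCCAR1 dex and for CALCOCO1 in siCoCoA ethanol. A list of 12 interferon-stimulated genes moved with the depletions: all 11 with a probe were called higher in each of the 8 comparisons with siNS, where at most 15.5% of all genes were, and their mean level per array ran from 6.14 to 8.61 in siNS and from 8.76 to 13.10 in the depleted cells. Their part in the depletion results was not tested. NR3C1, the glucocorticoid receptor gene, was not called in any of the 17 comparisons. Epithelial markers were above the line in 5 of 5 genes, endothelial markers in 0 of 4, leukocyte markers in 1 of 3 with a probe (CD14) and fibroblast markers in 2 of 5.

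Of 6 other tested genes of glucocorticoid handling, 1 rose and 1 fell with dex in siNS. Of all genes, 7.7% rose and 8.61% fell there. HSD11B1, which regenerates cortisol from cortisone, rose by 0.75 in siNS (limma adjusted p = 0.0006), and NR3C2, the mineralocorticoid receptor, fell by 0.46 (adjusted p = 0.037). HSD11B1 also rose in siZNF282 (1.24, adjusted p = 0.0031), and NR3C2 fell in siCCAR1 (-0.75, adjusted p = 0.0092), while no other gene of the list was called in a dex response. The brightest HSD11B1 probe had group means of 4.35 to 5.71, near background like HSD11B2, with 3 groups above the line of 5. NR3C2 was near background too. Its only probe past the filter had group means of 4.42 to 5.34, with 2 groups above the line. HSD11B1 and NR3C2 were tested only through these few groups, so their differences are a description. In dex HSD11B1 was lower in siCCAR1 than in siNS (-0.61, adjusted p = 0.013), as HSD11B2 was. H6PD, which supplies NADPH to HSD11B1, was lower in siCCAR2 in ethanol (-0.61, adjusted p = 0.007).

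Of 8 tested vitamin D pathway genes, none was called with dex in siNS, siCCAR1, siCoCoA or siCCAR2 (limma). In siZNF282, CUBN, an endocytic receptor, fell (-0.69, limma adjusted p = 0.025), where 2.29% of all genes fell. CUBN lay near background, with group means of 4.30 to 5.03, and passed the filter through only 1 group above the line of 5. Its fall is therefore a description. RXRA, the partner of VDR on DNA, was lower in siCCAR2 under both treatments, at -0.82 in ethanol with an adjusted p of 4.7e-06 and at -0.69 in dex with one of 5.5e-05. CYP27B1, which makes calcitriol, was lower in ethanol by -0.67 both in siCCAR2, with an adjusted p of 0.016, and in siZNF282, with one of 0.038. Its group means of 4.68 to 5.42 were also near background. CYP2R1, an enzyme of the step before, was higher in siCCAR1 under both treatments, at 0.41 in ethanol with an adjusted p of 0.026 and at 0.45 in dex with one of 0.01. Of 10 tested genes known as vitamin D targets in other settings, 3 rose and 1 fell with dex in siNS. Of all genes, 7.7% rose and 8.61% fell there. THBD (thrombomodulin) rose by 2.20 (adjusted p = 6e-09), GADD45A by 1.68 (adjusted p = 1.1e-14) and ORM1 by 0.60 (adjusted p = 0.0021), while TXNRD1 fell by 0.93 (adjusted p = 3.2e-09). TXNRD1 is also among the NRF2 genes given below. ORM1 had group means of 4.35 to 5.35, with only 4 groups above the line of 5, and THBD means began at 4.72. Both reached background in some groups, so the sizes of their rises are uncertain. The dex response of GADD45A was smaller in siCCAR1 than in siNS (-1.06, adjusted p = 0.0015), and no other change of dex response was called in this list.

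Further groups of steroid-metabolizing genes were examined in the same way. In the dex response of siNS, CYB5A (0.36, limma adjusted p = 0.0081) was the call among 4 tested steroidogenesis genes, and HSD17B4 (0.43, adjusted p = 0.0011) that among 8 tested 17-beta-hydroxysteroid dehydrogenases. Both rose, as did 7.7% of all genes. In siZNF282, 3 of these 8 dehydrogenases were lower in ethanol, where 17.1% of all genes were, and 4 in dex, where 15% were, led by HSD17B8 (-0.54, adjusted p = 0.016, and -0.85, adjusted p = 0.00022). Among 8 tested reductases and further aldo-keto reductases, CBR3, a carbonyl reductase, fell with dex under all 5 siRNAs, from -1.14 in siCCAR1 to -1.42 in siZNF282. Among 12 tested genes of sulfation, glucuronidation and transport, the exporter ABCC4 rose under all 5, from 0.56 in siCoCoA to 0.78 in siNS. SULT2B1, a hydroxysteroid sulfotransferase, was lower than siNS in dex by -1.04 in siCCAR1, -0.58 in siCoCoA and -1.14 in siZNF282, with adjusted p-values of 0.0002, 0.034 and 0.00056. UGT2B15 and UGT2B17, which conjugate androgens, were higher in siCoCoA in ethanol (0.73 and 0.77) and in dex (0.70 and 0.68), and their probes may share RNA. Of all genes, 8.44% and 11% were higher there. Both genes lay near background. UGT2B15 had group means of 4.38 to 5.30, with 2 groups above the line of 5. No UGT2B17 probe had a group mean above 5.66 or more than 3 groups above the line. They passed the filter through these few groups, so the differences are a description.

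Of 18 tested genes driven by NRF2, the factor that also drives AKR1C genes and AKR1B10, 11 fell with dex in siNS and none rose, where 8.61% of all genes fell. Their median was -0.45, against -0.03 over all genes. HMOX1 (-1.45, limma adjusted p = 1.8e-08), GCLM (-1.29, adjusted p = 3.1e-11), SRXN1 (-1.21, adjusted p = 1.3e-10) and GCLC (-1.01, adjusted p = 1.8e-07) fell most. In the depleted cells 8 of the 18 fell in siCCAR1, siCoCoA and siCCAR2 each and 7 in siZNF282, where 3.36%, 4.56%, 3.25% and 2.29% of all genes fell. The members AKR1B10, AKR1C2 and AKR1C3 are read by probes near the ceiling of the array, so the sizes of their responses were not set against these genes. In siZNF282, 9 of the 18 were lower than siNS in ethanol, where 17.1% of all genes were, and 8 in dex, where 15% were. There AKR1B10, AKR1C2 and AKR1C3 differed from siNS by -0.02 to 0.06. These values come from the same probes near the ceiling, and how far they were compressed was not tested.

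As a description of likeness, Pearson correlations over the 10 group means were taken with 8665 genes outside the members whose group means spanned at least 0.5, and which share the arrays. CYP24A1 was most like SOX9 (r = 0.98), SQSTM1 (0.98) and GDF15 (0.98). HSD11B2 was most like PHACTR3 (0.99), FAM151A (0.96) and BEST2 (0.96). AKR1C3 was most like MGME1 (0.97) and AKR1B15 (0.96), and AKR1B10 was most like AKR1B15 (0.91) and MGME1 (0.90). AKR1C2 was most like CD99L2, ZCCHC17 and OBI1 (0.92 each), and VDR most like RARRES1 (0.96), SCARB1 (0.95) and RAB27A (0.95).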

How the data were processed

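Arrays measured RNA of A549 cells in 40 samples of 10 groups. The authors deposited log2 normalized intensities per probe; limma 3.14.4 is named per the submitters' processing notes, and background correction, normalization and filter are not given in the sources used here. The deposited non-normalized table was not used: its 80 columns carry chip positions that the labels do not match to samples. Platform annotation gave 1 symbol to 26360 of 34469 probes, several to 3 and none to 8106.

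The brightest probe per gene, with a mean above 5 in at least 1 group, stood for the gene (10608 genes). limma 3.58.1 (R 4.3.3) fitted 1 mean per group over the 40 arrays with eBayes, 2-sided, Benjamini-Hochberg adjusted over all genes and called under 0.05, for 17 comparisons. Every probe was also fitted on its own (13903 probes). The fit was tested on simulated data. Precision is limited by the number of arrays. Same-numbered arrays deviated together in every pair for the dex responses of siNS, siCCAR1, siCoCoA and siCCAR2 (correlations 0.13 to 0.47) and for siCoCoA and siCCAR2 against siNS in dex (0.13 to 0.39). The numbers were taken to pair samples there, but arrays of different numbers were not compared. The main fit did not use this pairing.

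Members and gene lists were chosen with earlier results of these data known. Named genes were all members with every probe, NR3C1 with the genes the siRNAs target, at most 4 called genes of largest change per list and comparison, and the 3 most alike genes by correlation over group means. Promoter sequences come from RefSeq (GRCh38.p14), which held 5 of the 9 members. Alternatives varied filter, probe choice, normalization, samples in the fit, replicate block, variance model and each left-out array.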

Additional observations from a re-analysis of the deposited data

Results flagged for a closer look

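The dimmest AKR1C2 probe, ILMN_1730191, changed its dex response between siZNF282 and siNS by -1.33 (log2, limma interaction with every probe as a feature, adjusted p = 0.000151), which was the difference that singled it out. It rests on 2 siZNF282 ethanol arrays, at 5.34 and 5.40, against 4.20 to 4.41 in siNS ethanol. The siZNF282 dex arrays and all siNS arrays lay below the line of 5, and the probe was tested only through the high siZNF282 ethanol group, so the size is an uncertain description against background. The main AKR1C2 probe gave 0.01 for the same interaction. Without any 1 of the 4 siZNF282 arrays the value ran from -1.39 to -1.27 and was called. Fitted on only the groups compared, it was -1.33 with an adjusted p of 0.0664. Judged by the gap of the outermost array over the range of its group, no array stood far in the 72 groups of member values examined. Only groups of at least 4 arrays were examined, so the siZNF282 groups, with 2 arrays each, could not be judged.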

How the results depend on the processing

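No called member value changed sign under an alternative. Leaving aside left-out arrays, of the called members' values under alternatives 148 stayed called and 6 did not, and 9 values not called in the main setting became called. These counts leave out HSD11B2 and VDR under the filter line of 6, which removed both near-background genes, so their calls had no value there. Fitting only the groups compared ended the calls of AKR1B10 in siCCAR2 dex response (-0.30, adjusted p = 0.267), CYP24A1 in siZNF282 dex response (-1.22, adjusted p = 0.134), AKR1B10 in siCoCoA in dex (0.21, adjusted p = 0.135) and VDR in siZNF282 in dex (0.48, adjusted p = 0.135), and gave 600 called genes for the siCCAR2 dex response (1031 in the main setting) and 75 for siZNF282 (657). AKR1B10 in siCoCoA in dex also missed with each probe as a feature (0.21, adjusted p = 0.0526) and with median centring (0.20, adjusted p = 0.0527). Leaving out 1 array gave 0.50 to 0.65 for HSD11B2 in siCCAR2 dex response, -0.34 to -0.24 for AKR1B10 there, -1.50 to -0.95 for CYP24A1 in siZNF282, 0.20 to 0.22 for AKR1B10 in siCoCoA in dex and 0.22 to 0.74 for VDR in siZNF282 in dex. Called genes then ran from 343 to 863 for the siZNF282 dex response, 1521 to 3273 for siZNF282 against siNS in ethanol and 1826 to 3173 in dex.

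For the change of dex response, called genes were 11 (siCCAR1), 1 (siCoCoA), 9 (siCCAR2) and 26 (siZNF282) in the main setting. Fitting only the groups compared gave 6, 0, 3 and 2, and leaving out 1 array 5 to 11, 0 to 2, 3 to 17 and 8 to 261. The replicate block gave 19 (siCCAR1), 21 (siCCAR2) and 65 (siZNF282). For siCoCoA no filter gave 0, each probe as a feature 2 and renewed quantile normalization 0, and for siZNF282 no filter gave 17, a filter line of 6 gave 9 and the trended robust variance 15. The cause was not tested.

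With the replicate block, no member's call was lost and 4 were gained of 102: AKR1C3 in the siNS dex response (-0.24, adjusted p = 0.0349), AKR1C2 in siCoCoA in ethanol (-0.24, adjusted p = 0.0402), CYP24A1 in siZNF282 in ethanol (-0.51, adjusted p = 0.011) and AKR1B10 in siCCAR1 in dex (0.22, adjusted p = 0.0288). The last 3 were in comparisons where the numbers were not taken to pair the samples. A filter line of 6 removed HSD11B2 and VDR and left 4 members. Refitting from the non-normalized signals and a filter on detection p were not run, since the columns could not be matched to samples. Signal near background limits HSD11B2, VDR and AKR1C1, and 2 arrays a group limit siZNF282.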
